A study of Rattus norvegicus with 9 samples.

Results

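The genes examined were 8 members of a CC chemokine axis that draws monocytes and other leukocytes into tissue, listed by name as Ccl2, Ccl7, Ccl12, Ccr2, Ccl3, Ccl4, Ccl5 and Ccr1. Of these, 7 had a row in the count table of 30507 genes and Ccr1 was not analysed here. They were read in bulk RNA from the spinal cord of female wild-type Sprague-Dawley rats that were 8 weeks old when obtained, before surgery, with 3 rats in each of 3 groups, all sampled 35 days post-injury (dpi). Rats of the Sham group underwent laminectomy without contusion. Rats of the SCI group received a contusion at T10 and carried a connector on the neck with no electrode. Rats of the SCI + SCS group received the same contusion and an epidural electrode over the cord, and were stimulated at 10 kHz, 0.12 mA and a pulse width of 30 μs for 2 h each day from 1 dpi. A group with an implanted but inactive electrode was not analysed here, so that between the 2 injured groups the electrode and the current cannot be told apart. In bulk tissue, fewer cells of a type and less RNA per cell cannot be told apart either.

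CC chemokines are small secreted proteins that guide leukocytes through receptors coupled to G proteins. CCL2, CCL7 and CCL12 act mainly on CCR2, the receptor that classical monocytes carry when they leave the bone marrow and enter inflamed tissue. CCL3 and CCL5 act on CCR1, which macrophages and other leukocytes carry, and CCL4 is a close relative of CCL3. In the injured spinal cord these ligands are known products of astrocytes, microglia, endothelial cells and infiltrating leukocytes.

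The 6 ligand genes lay on chromosome 10 in the coordinates of the deposited table, whose build is mRatBN7.2 per the submitters' processing notes. Ccl2 (ENSRNOG00000007159, chr10:67005424-67007226), Ccl7 (ENSRNOG00000000239, chr10:67016446-67018303) and Ccl12 (ENSRNOG00000029768, chr10:67070230-67071780) stood in a row of 66.4 kb on the plus strand. Ccl5 (ENSRNOG00000010906, chr10:68322829-68327377, minus strand), Ccl3 (ENSRNOG00000011205, chr10:68451388-68452938, minus strand) and Ccl4 (ENSRNOG00000011406, chr10:68452052-68468231, plus strand) formed another run of 145 kb. Ccl3 and Ccl4 overlapped by 887 bases on opposite strands, and the strand setting of the counting is not given in the sources used here, so that reads from the overlap cannot be assigned to one gene with certainty. Ccr2 (ENSRNOG00000063127, chr8:123734430-123742100) lay on the plus strand of chromosome 8.

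Promoter sequences of RefSeq on the build GRCr8, from 250 bases before to 50 bases after the gene start, were at hand for 4 of the 8 members. Those of the neighbours Ccl7 and Ccl12 are printed because both ligands were higher after injury, and that of Ccr2 because it encodes their receptor. Capitals mark every match, on either strand, to 4 short motifs. The NF-kappaB motif was 3 G, then 5 bases of any kind, then 2 C. The AP-1 motif searched for was TGANTCA. For the C/EBP factors the letters were TTNNGNAA. The TATA box, which positions the transcription machinery, was searched for as TATAAA. The promoter of Ccl7 is chr10:67513845-67514144, that of Ccl12 is chr10:67567626-67567925 and that of Ccr2 is chr8:132611953-132612252, all on the plus strand.
Ccl7: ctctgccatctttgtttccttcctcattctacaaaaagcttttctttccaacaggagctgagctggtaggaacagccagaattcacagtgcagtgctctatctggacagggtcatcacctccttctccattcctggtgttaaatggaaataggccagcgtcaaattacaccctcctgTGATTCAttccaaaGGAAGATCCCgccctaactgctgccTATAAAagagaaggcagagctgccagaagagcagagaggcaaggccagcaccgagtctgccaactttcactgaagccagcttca
Ccl12: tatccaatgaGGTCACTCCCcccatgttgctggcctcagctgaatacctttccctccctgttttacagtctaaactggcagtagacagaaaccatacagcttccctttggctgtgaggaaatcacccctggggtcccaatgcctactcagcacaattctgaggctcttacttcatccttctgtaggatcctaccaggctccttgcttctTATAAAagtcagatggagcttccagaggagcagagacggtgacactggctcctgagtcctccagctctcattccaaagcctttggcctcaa
Ccr2: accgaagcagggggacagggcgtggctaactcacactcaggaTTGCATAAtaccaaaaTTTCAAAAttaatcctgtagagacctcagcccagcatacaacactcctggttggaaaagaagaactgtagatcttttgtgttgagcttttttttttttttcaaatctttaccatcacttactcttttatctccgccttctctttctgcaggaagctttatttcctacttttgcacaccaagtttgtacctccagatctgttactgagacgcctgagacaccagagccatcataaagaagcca

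The Ccl7 promoter held an AP-1 match at -73 to -67 from the gene start, an NF-kappaB match at -59 to -50 and a TATA box at -34 to -29. The Ccl12 promoter held an NF-kappaB match at -240 to -231 and a TATA box at -41 to -36, and the Ccr2 promoter held 2 C/EBP matches, at -208 to -201 and at -192 to -185. Among 33469 rat promoters of the same length, 47.3% held the NF-kappaB motif, 41.3% the C/EBP motif, 14.2% the TATA box and 7.33% the AP-1 motif. These matches describe the letters in the window and do not show that a factor was bound.

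The libraries held 62844376 to 88358570 counts each, so that 3 counts corresponded to 0.034 to 0.0477 CPM, the count scaled to library size. Levels below are CPM with the trimmed mean of M values (TMM) as scaling, and comparisons between genes use the FPKM values that the authors deposited, which are also scaled for gene length. Fold changes are from edgeR's quasi-likelihood test on counts, with Benjamini-Hochberg adjustment over all genes tested, and a gene was called at an absolute log2 fold change over 1 with an adjusted p under 0.05. The labels gave no batch. Skeletal muscle genes stood out in 2 of the SCI libraries, where 8 listed genes summed to 3673 CPM in replicate 1 and 1032 CPM in replicate 3, against 11.2 CPM in replicate 2 and 14.0 to 65.8 CPM in the other groups. An adipocyte list of 6 genes was at 2.83 to 8.88 CPM in Sham rats, 86.9 to 115 CPM in the SCI libraries and 26.6 to 42.8 CPM with stimulation. It was highest in SCI replicate 2 and was carried by Cfd and Fabp4, with Lep at 0 in every library. Markers of the cord itself were present throughout, with a neuron list of 7 genes at 4015 to 8826 CPM in Sham rats, 588 to 1979 CPM in the SCI libraries and 1783 to 3019 CPM with stimulation.

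All 7 genes rose after injury. All 7 were called higher against the Sham group, and in each of them every SCI library lay above every Sham library. Among the 17822 genes tested, 13.4% were called higher and 32.6% had every SCI library above every Sham library. The median log2 fold change of the 7 genes was 2.79, against 0.015 for all genes tested.

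**Figure D1:**
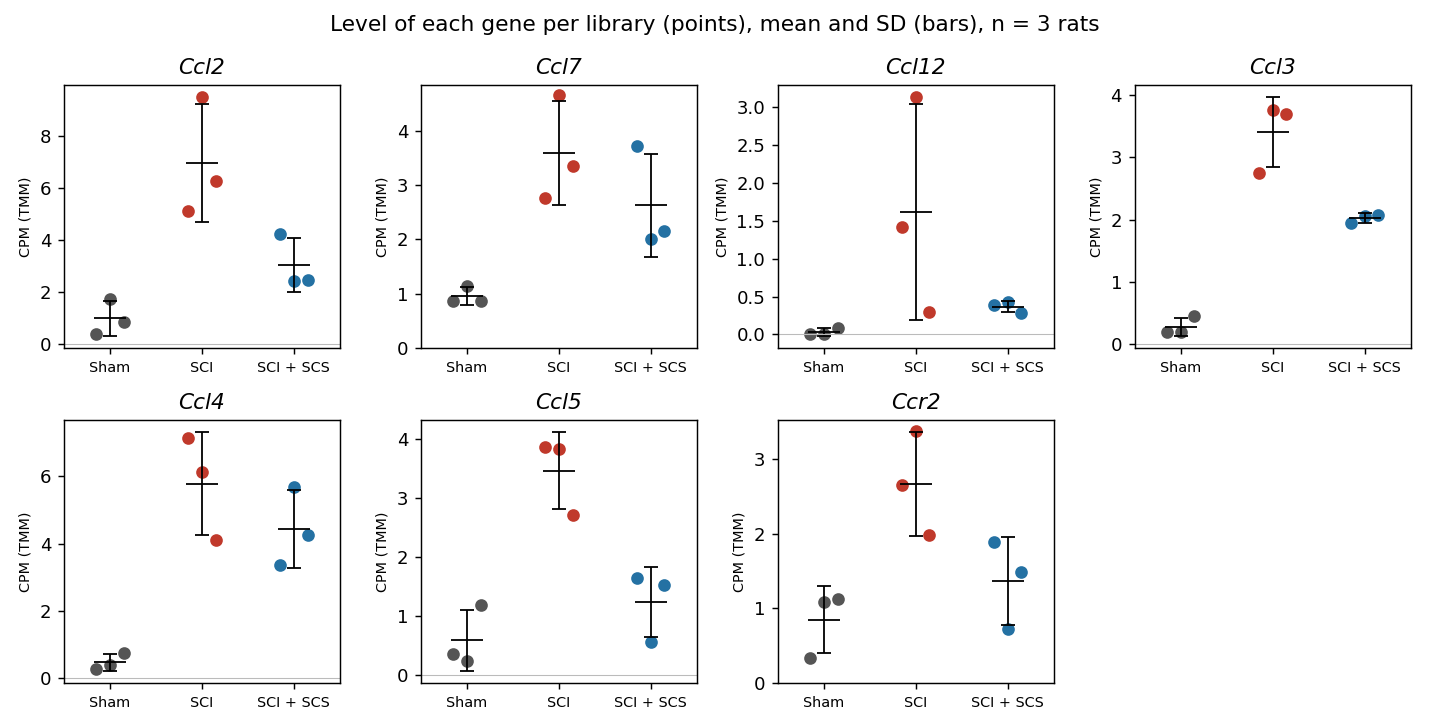
CPM (TMM-scaled) of the 7 genes in each library, by group, with points for libraries and bars for the mean and SD of 3 rats on linear axes. All SCI points lie above all Sham points for every gene, while the SCI + SCS points lie wholly below the SCI points for Ccl2, Ccl3, Ccl5 and Ccr2.

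Among the CCR2 ligands, Ccl2, the principal monocyte chemoattractant, stood at 0.377, 1.72 and 0.858 CPM in the Sham libraries and at 5.11, 9.49 and 6.27 CPM in the SCI libraries. The lowest SCI library lay well above the highest Sham library. Its mean rose from 0.983 ± 0.678 to 6.96 ± 2.27 CPM (SD, n = 3), a log2 fold change of 2.79 ± 0.56 (SE, edgeR adjusted p = 0.00769). Without Sham replicate 2, the highest of the Sham libraries, it was 3.45.

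Ccl7, which shares CCR2 with Ccl2, was at 0.865, 1.14 and 0.869 CPM in the Sham libraries and at 2.77, 4.65 and 3.35 CPM in the SCI libraries. It was the most even of the 7 genes among Sham rats, and the rise was the smallest among the 6 ligands, at a log2 fold change of 1.89 ± 0.29 (SE, edgeR adjusted p = 0.00321).

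Ccl12 was not counted in Sham replicates 1 and 2 and had 8 counts in Sham replicate 3, which put the Sham mean of 0.0305 CPM under the level of 3 counts. The SCI libraries held 112, 221 and 21 counts, or 1.42, 3.14 and 0.303 CPM, so that replicate 3 stood far below the other two. The fitted log2 fold change of 5.56 ± 1.36 (SE, edgeR adjusted p = 0.0158) depended on the few Sham counts and is no firm size. It was no longer called without SCI replicate 2 or without Sham replicate 2 (adjusted p = 0.0504 in each). Without Sham replicate 3, which held all the Sham counts, the fitted value was 9.9, which is no bound.

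Of the other ligands, Ccl3 was at 0.189, 0.193 and 0.446 CPM in the Sham libraries and at 2.75, 3.76 and 3.7 CPM in the SCI libraries. Ccl4 was at 0.283, 0.386 and 0.766 CPM and then at 7.12, 6.12 and 4.1 CPM. Both rose about equally on the log2 scale, by 3.59 ± 0.42 for Ccl3 and 3.56 ± 0.44 for Ccl4 (SE, edgeR adjusted p = 0.00182 and 0.00202).

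Ccl5, a ligand that T and NK cells as well as macrophages make, was at 0.346, 0.227 and 1.18 CPM in the Sham libraries and at 3.85, 3.83 and 2.7 CPM in the SCI libraries. Sham replicate 3 was high, yet it remained under the lowest SCI library. The log2 fold change was 2.54 ± 0.62 (SE, edgeR adjusted p = 0.0158), and 3.57 without that Sham library.

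Ccr2, the monocyte receptor, was at 0.33, 1.08 and 1.13 CPM in the Sham libraries and at 2.66, 3.38 and 1.98 CPM in the SCI libraries. The log2 fold change of 1.63 ± 0.49 (SE, edgeR adjusted p = 0.0317) was the smallest of the 7 genes. It was not called without SCI replicate 1 (adjusted p = 0.0675), SCI replicate 2 (0.0948), SCI replicate 3 (0.0525) or Sham replicate 2 (0.0633).

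Leaving out SCI replicates 1 and 3, in which muscle genes were high, left 1 SCI library and 1 of the 7 genes called, Ccl7, with a log2 fold change of 2.27 and an edgeR adjusted p of 0.0488. The log2 fold changes of the other 6 genes then lay between 1.98 and 6.52, all above those with every library, while the adjusted p ran from 0.0505 to 0.129. The remaining SCI library, replicate 2, had the highest adipocyte sum and the highest Ccl2, Ccl7, Ccl12, Ccl3 and Ccr2 of the SCI libraries. It was assumed to vary as the Sham libraries do.

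**Figure D2:**
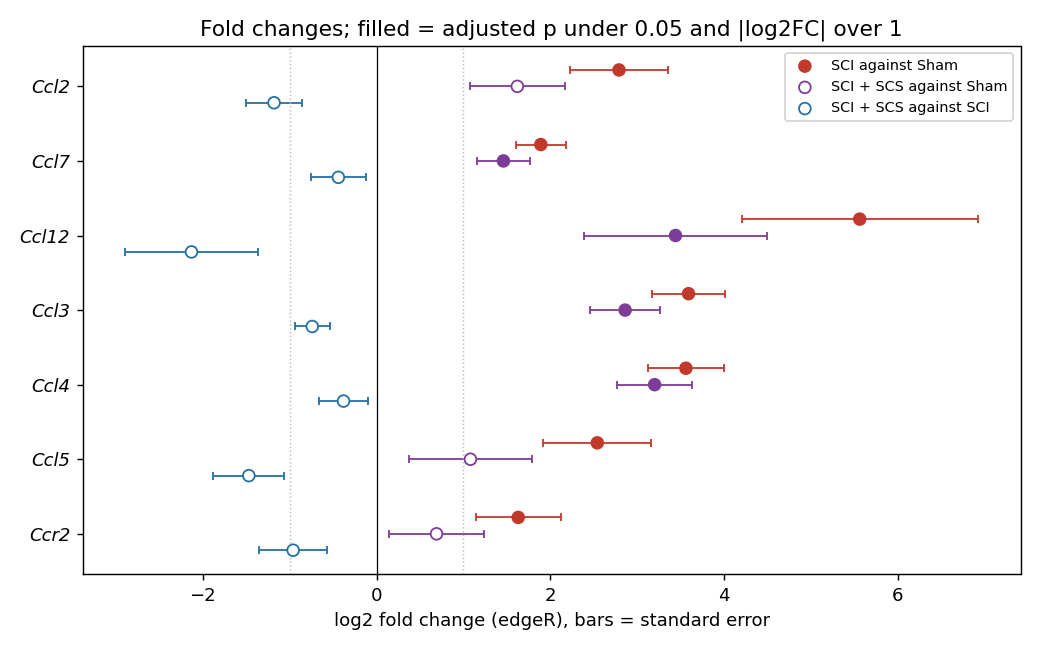
edgeR log2 fold changes of the 7 genes in 3 comparisons, with bars for the standard error and filled points for called genes. All 7 points for SCI against Sham are filled, 4 are filled for SCI + SCS against Sham, and all 7 for SCI + SCS against SCI lie below 0 and are open.

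Under stimulation all 7 genes had lower means than in the SCI group, but none was called by edgeR. Across 17663 genes tested in that comparison, 0% were called lower and 0.00566% higher, 1 gene in all. At an unadjusted p under 0.05 with the same fold threshold, 3 of the 7 genes were lower (Ccl2, Ccl12 and Ccl5), against 2.56% of genes tested. DESeq2, the other count model, called these same 3 genes lower, against 2.03% of 17450 genes, so that the call depended on the model. In 4 of the 7 genes (Ccl2, Ccl3, Ccl5 and Ccr2) every SCI + SCS library lay below every SCI library, against 13.9% of genes tested. The median log2 fold change was -0.96, against -0.006 for all genes tested.

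Ccl2 was at 4.22, 2.44 and 2.46 CPM in the SCI + SCS libraries, all below the lowest SCI library at 5.11 CPM. The log2 fold change was -1.18 ± 0.32 (SE), with an adjusted p of 0.103 in edgeR and 0.00536 in DESeq2. The SCI + SCS mean of 3.04 ± 1.02 CPM (SD, n = 3) was 0.437 of the SCI mean.

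Ccl5 was at 1.64, 0.553 and 1.52 CPM, likewise with no overlap. Its log2 fold change was -1.47 ± 0.41 (SE), with an adjusted p of 0.108 in edgeR and 0.00787 in DESeq2. Ccl3 was at 1.94, 2.06 and 2.08 CPM, a spread far narrower than in the SCI group, and its log2 fold change of -0.74 ± 0.20 (SE) had an adjusted p of 0.105 in edgeR and 0.015 in DESeq2, with a size short of the fold threshold.

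Ccr2 was at 1.89, 0.723 and 1.49 CPM, with replicate 1 just under the lowest SCI library at 1.98 CPM, and had a log2 fold change of -0.96 ± 0.39 (SE, edgeR adjusted p = 0.194). Ccl12 was at 0.393, 0.425 and 0.282 CPM. The low SCI replicate 3 fell within that range, and the log2 fold change of -2.13 ± 0.76 (SE) had an adjusted p of 0.155 in edgeR and 0.0331 in DESeq2.

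Ccl7 at 3.72, 2.01 and 2.16 CPM and Ccl4 at 3.37, 5.67 and 4.25 CPM overlapped the SCI libraries. Their log2 fold changes were -0.44 ± 0.32 and -0.38 ± 0.28 (SE, edgeR adjusted p = 0.435 and 0.444).

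Set against the Sham group, the SCI + SCS group had 4 of the 7 genes called higher, against 6.28% of 17640 genes tested. In 5 of the 7 every SCI + SCS library lay above every Sham library, against 27.2% of genes tested. Ccl3 and Ccl4 rose by 2.86 ± 0.40 and 3.2 ± 0.43 on the log2 scale (SE, edgeR adjusted p = 0.00604 and 0.00547), and Ccl7 by 1.46 ± 0.31 (SE, edgeR adjusted p = 0.0171). Ccl12 had a log2 fold change of 3.44 ± 1.05 (SE, edgeR adjusted p = 0.0473) against its few Sham counts, and the call was lost without any 1 library but Sham replicate 3, with adjusted p between 0.0916 and 0.133. Without Sham replicate 3 it was 7.72, again against a group at 0. Ccl2 had a log2 fold change of 1.62 ± 0.55 (SE, edgeR adjusted p = 0.0621). It was called in 6 of 17 alternatives, among them DESeq2 (1.61, adjusted p = 0.0124) and edgeR without Sham replicate 2 (2.29, adjusted p = 0.0458). Ccl5 and Ccr2 had log2 fold changes of 1.08 ± 0.71 and 0.69 ± 0.55 (SE, edgeR adjusted p = 0.271 and 0.362), and Ccl5 was called without Sham replicate 3 (2.12, adjusted p = 0.0384). These comparisons share libraries with those above.

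Per length, the order of the genes differed between groups. In the Sham group Ccl2 (1.01 ± 0.721 FPKM, SD, n = 3) and Ccl7 (0.937 ± 0.175 FPKM) led and overlapped, and every Ccl7 value lay above every value of the next gene, Ccl5. In the SCI group Ccl2 led at 7.2 ± 2.78 FPKM with no overlap with Ccl3, the next at 3.64 ± 0.881 FPKM. Ccl7, Ccl4, Ccl12 and Ccl5 followed at means of 3.57 to 2.29 FPKM, each overlapping its neighbour. Ccr2 had the lowest mean, 0.488 ± 0.142 FPKM, though Ccl12 in SCI replicate 3, at 0.459 FPKM, fell within the Ccr2 range. In the SCI + SCS group Ccl2, Ccl7, Ccl4 and Ccl3 followed each other closely, at means of 3.18 to 2.2 FPKM, and stood apart from Ccl5 at 0.843 ± 0.412 FPKM.

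**Figure D3:**
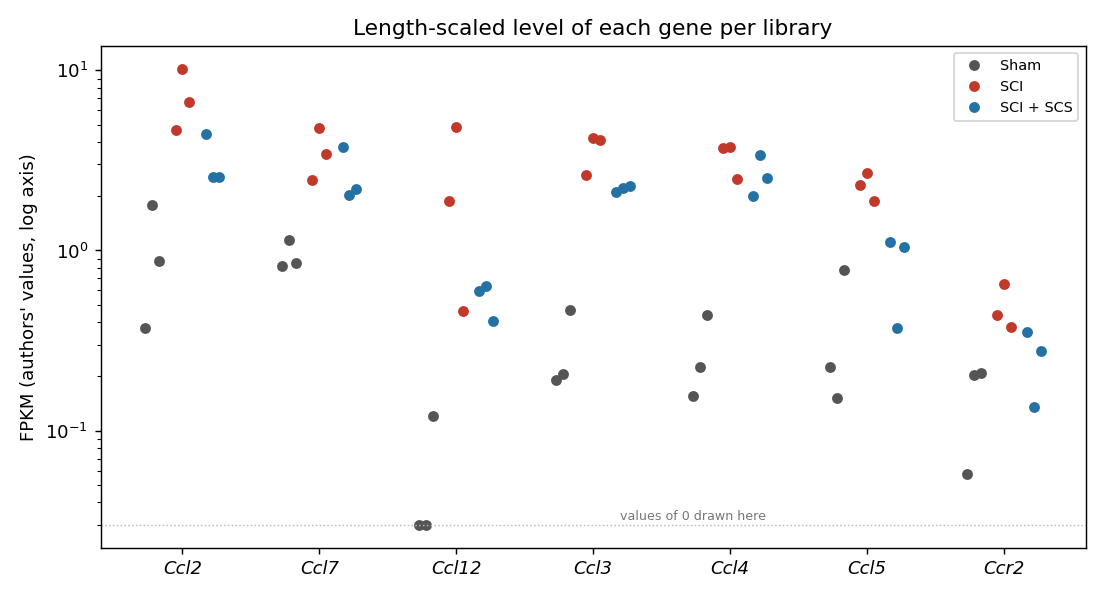
FPKM of the 7 genes per library on a log axis, coloured by group, with values of 0 drawn at 0.03. Ccl2 is the highest gene in every SCI library, and Ccr2 has the lowest mean in the SCI and SCI + SCS groups.

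The 6 ligands together summed to 1.77, 3.51 and 3.54 FPKM in the Sham libraries, 17.7, 30.5 and 19.1 FPKM in the SCI libraries and 14.0, 11.2 and 11 FPKM in the SCI + SCS libraries. The groups did not overlap. The CCR2 ligands made up 52.1 to 83.4% of the sum in Sham rats, 51.1 to 65.2% after injury and 46.6 to 62.6% with stimulation, ranges that overlapped.

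Ratios between ligands within a library were looked at after the values were seen, for the 6 pairs within Ccl2, Ccl7 and Ccl12 and within Ccl3, Ccl4 and Ccl5. The ratio of Ccl2 to Ccl7 in FPKM was 1.92, 2.12 and 1.94 in the SCI libraries and 1.18, 1.26 and 1.18 in the SCI + SCS libraries. The SCI values lay close together and did not overlap with those of the SCI + SCS group or of the Sham group (0.45, 1.57 and 1.03). The ratio of Ccl4 to Ccl5 was 1.61, 1.39 and 1.32 in the SCI libraries and 1.79, 9.09 and 2.45 in the SCI + SCS libraries, again without overlap. That of Ccl3 to Ccl4, genes that may share reads, overlapped between groups in all 3 comparisons. An exact two-sided permutation test gave p = 0.1 for each ratio without overlap, the smallest that 3 libraries against 3 allow, and the adjusted p was 0.28 over 14 tests.

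After injury, the sums of the myeloid, T and NK cell and B cell lists were higher without overlap. The pan-myeloid list (7 of 8 listed genes present) summed to 455 to 518 CPM in Sham rats, 1516 to 1896 CPM after injury and 1283 to 1473 CPM with stimulation. The monocyte and macrophage list of 12 genes summed to 135 to 444, 2691 to 3647 and 1873 to 2021 CPM. The microglia list of 10 genes summed to 302 to 421, 524 to 653 and 532 to 631 CPM. The T and NK cell list of 12 genes summed to 23.0 to 60.7, 146 to 208 and 117 to 153 CPM. Most of that sum was Cd4, with means of 36.8 CPM in Sham rats, 135 CPM after injury and 116 CPM with stimulation. Cd3e of the same list had means of 0.267, 2.09 and 0.472 CPM. The log2 fold change of Cd4 after injury was 1.86, against medians of 2.74 for its list and 1.94 for the pan-myeloid list. The sum thus mainly followed Cd4, and whether that RNA came from T cells or myeloid cells was not tested. The neutrophil list of 9 genes was at 3.85 to 8.64, 18 to 36.1 and 19.4 to 38.6 CPM, with 1 gene, Ltf, at 0 throughout. The B cell list of 5 genes was at 0.362 to 0.647, 1.99 to 2.28 and 1.57 to 2.24 CPM. Of 12 monocyte and macrophage genes tested, 9 were called higher after injury and none lower, against 13.4% of all genes tested.

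Under stimulation these lists went different ways. None of their genes was called against the SCI group by edgeR. Of the T and NK cell genes, 11 of 11 tested were lower than in the SCI group, with a median log2 fold change of -1.4, and 6 were called lower by DESeq2. Cd3e, a subunit of the T cell receptor complex, had means of 2.09 CPM in the SCI group and 0.472 CPM with stimulation, and Cd3g of 2.04 and 0.611 CPM. Of the monocyte and macrophage genes, 11 of 12 were lower and 3 were called lower by DESeq2, against 2.03% of all genes. The medians of the microglia and neutrophil lists were 0.01 and 0.13, and their sums overlapped between the injured groups. All 7 neuron, 6 oligodendrocyte and 6 astrocyte genes tested were higher with stimulation than in the SCI group, with medians of 1.05, 0.47 and 0.51. The part of these shifts in the chemokine results was not tested beyond the scaling that follows.

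Each gene was then divided by the summed pan-myeloid level of its own library. On this scale Ccl3 stood at 0.576 ± 0.35 per 1000 pan-myeloid CPM in Sham rats and 1.99 ± 0.501 after injury (SD, n = 3), and Ccl4 at 0.999 ± 0.604 and 3.28 ± 0.532, both without overlap. Against the Sham group this divisor alone was used. One of its genes, Fcer1g, had a Sham mean of 260 CPM, against list sums of 455 to 518 CPM, and a log2 fold change of 0.88 after injury. The monocyte and macrophage list rose more. Its sum had a median of 282 CPM in Sham rats and 3356 CPM after injury, against 504 and 1803 CPM for the pan-myeloid sum. The median log2 fold changes of their genes were 2.62 and 1.94. In CPM, the means of Ccl3 went from 0.276 to 3.4 and those of Ccl4 from 0.479 to 5.78. Whether Ccl3 and Ccl4 rose relative to the monocyte and macrophage list was not tested. Ccl7 stood at 1.94 ± 0.295 in Sham rats, 2.08 ± 0.572 after injury and 1.95 ± 0.743 with stimulation. Ccr2 stood at 1.76 ± 0.984, 1.53 ± 0.303 and 1.02 ± 0.479. Ccl2 was at 2.01 ± 1.34, 4.03 ± 1.29 and 2.24 ± 0.805, and overlapped between groups in every comparison.

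Between the SCI + SCS and SCI groups, 1 of the 7 genes was without overlap on this scale. That gene was Ccl5, at 0.93 ± 0.481 against 1.98 ± 0.176 per 1000 pan-myeloid CPM (SD, n = 3), a log2 difference of -1.27. The share of all genes without overlap on this scale was not computed. In CPM, 13.9% of genes tested had every SCI + SCS library below every SCI library. With the monocyte and macrophage list as the divisor 0 genes were without overlap, and with the microglia list 3 were. In exact two-sided permutation tests, p was 0.1 for Ccl5 here and for Ccl3 and Ccl4 against the Sham group, the smallest that 3 against 3 allow, and the adjusted p was 0.38 over the 19 tests that could be computed of the 24 planned. Missing were the 3 of Ccr1 and 2 of Ccl12, whose Sham libraries held zeros. Without SCI replicate 1 or without SCI + SCS replicate 1 the count was 3 genes, and without SCI replicate 3 or SCI + SCS replicate 3 it was 2. With fewer libraries a lack of overlap comes more easily.

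**Figure D4:**
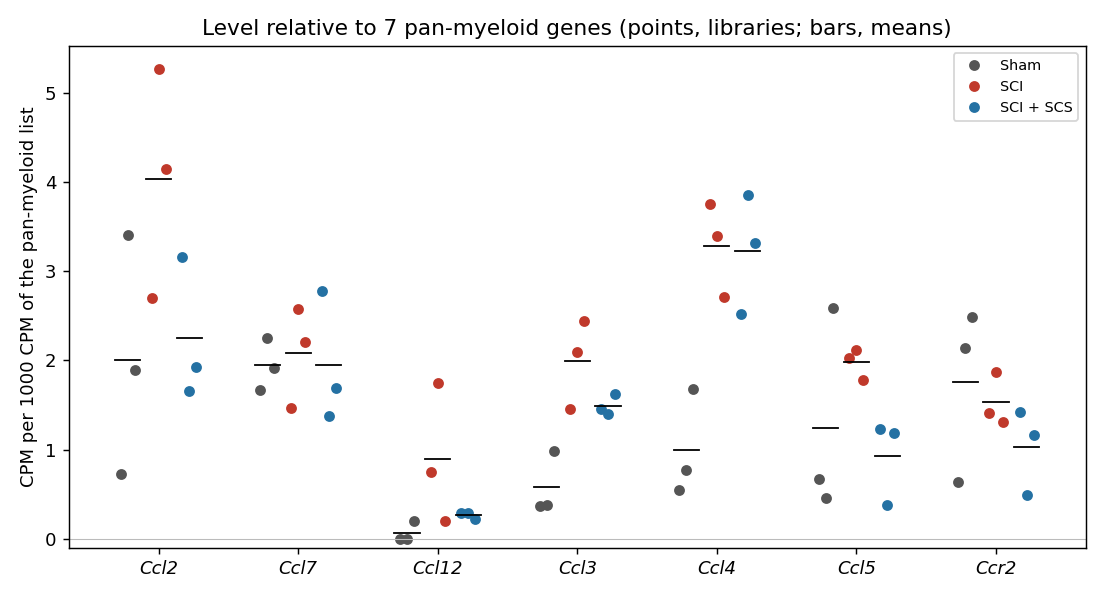
CPM of each gene per 1000 CPM of the pan-myeloid list in each library, with bars for group means on a linear axis. Ccl3 and Ccl4 lie higher in both injured groups than in the Sham group, while Ccl7 and Ccr2 overlap across groups.

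Of the other CC ligands, 14 were listed and 10 were tested. After injury 5 were called higher and none lower, against 13.4% of all genes called higher. Ccl9 had a log2 fold change of 7.83 ± 0.94 and Ccl22 of 5 ± 0.91 (SE, edgeR adjusted p = 0.00192 and 0.00565), both against Sham means near or under the level of 3 counts, and Ccl11 had one of 4 ± 0.97 (SE, edgeR adjusted p = 0.0153). The SCI level of Ccl11, which enters both comparisons, was 1.61 ± 1.82 CPM (SD, n = 3), an SD above the mean, so that its fold changes are no firm sizes. The remaining 2 were Ccl17 and Ccl21. The edgeR adjusted p of Ccl21 was 0.05 after rounding, at the threshold, and DESeq2 did not call it (adjusted p = 0.0961). In the SCI + SCS group none of the 10 was called against the SCI group by edgeR, where 9 had a negative sign, and 5 were lower at an unadjusted p under 0.05 with the fold threshold, against 2.56% of all genes. DESeq2 called 5 lower, against 2.03% of all genes, namely Ccl9, Ccl11, Ccl17, Ccl20 and Ccl22. Their median log2 fold change was -2.27.

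Among the other CC and atypical receptors, 4 of 10 tested were called higher after injury and none lower, against 13.4% and 13.6% of all genes tested. Ccr7, which guides dendritic cells and T cells to lymph nodes, had a log2 fold change of 5.36 ± 0.99, Ccr6 of 2.10 ± 0.52 and the atypical receptor Ccrl2 of 1.84 ± 0.31 (SE, edgeR adjusted p = 0.00582, 0.0158 and 0.00423). The Sham mean of Ccr7 was 0.0191 CPM, under the level of 3 counts, so that its fold change is no firm size. None of the 9 tested against the SCI group was called in the SCI + SCS group by edgeR or DESeq2, and 0 passed at an unadjusted p under 0.05 with the fold threshold.

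**Figure D5:**
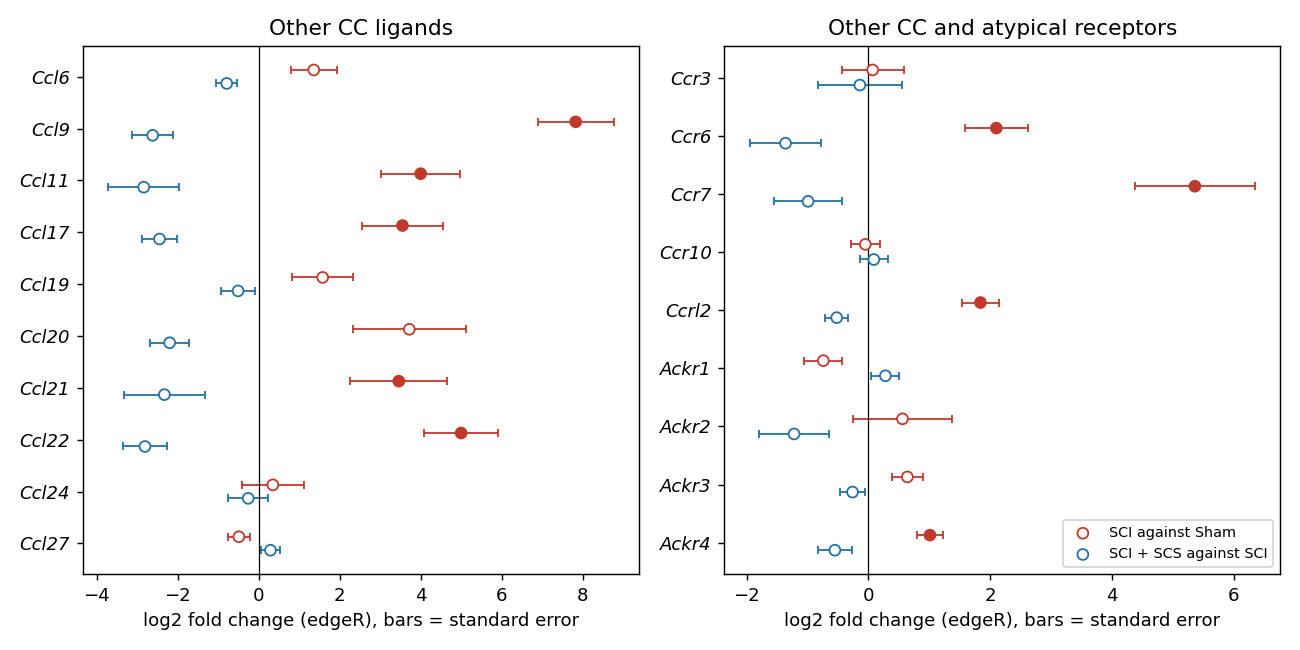
edgeR log2 fold changes with standard errors of the other CC ligands (left) and the other CC and atypical receptors (right) that were tested in both SCI against Sham and SCI + SCS against SCI, with filled points for called genes. All called points belong to SCI against Sham and lie above 0.

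Downstream of the receptors, 7 of 25 signalling genes tested were called higher after injury and 2 lower, against 13.4% and 13.6% of all genes tested. Rgs1, a regulator that shortens G protein signals, Plcb2, a phospholipase, and Rac2, a GTPase of blood cells, rose by 2.88 ± 0.28, 2.53 ± 0.23 and 2.21 ± 0.33 on the log2 scale (SE, edgeR adjusted p = 0.00134, 0.00122 and 0.00309). Arrb1, an arrestin, and Elmo1, a partner of DOCK proteins, had log2 fold changes of -1.48 ± 0.26 and -1.27 ± 0.16 (SE, edgeR adjusted p = 0.00514 and 0.00206). Among genes of leukocyte adhesion and monocyte growth, 7 of 20 were called higher and none lower, and Itgax, Selp and Itgb2 had the largest changes, of 3.60 ± 0.56, 3.48 ± 0.96 and 2.24 ± 0.22 (SE, edgeR adjusted p = 0.00346, 0.0238 and 0.00135). The Sham mean of Selp was 0.0685 CPM, near the level of 3 counts, so that its fold change is no firm size. In the SCI + SCS group, no gene of either list was called against the SCI group by edgeR. DESeq2 called 0 signalling genes and 2 adhesion genes, the latter lower, against 2.03% of all genes called lower. With edgeR at an unadjusted p under 0.05 and the same fold threshold the counts were the same, against 2.56% of all genes.

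The genes whose CPM ran most like Ccl2 over the 9 libraries, by Pearson's r of log2(CPM + 0.1) among 14319 genes with a mean of at least 1 CPM, were Pou3f1 (0.986), Tmem106a (0.985), Tbx2 (0.984), Slpi (0.983) and Ppil6 (0.981). Those most like Ccr2 were Tbata (0.969), Olr1585 (0.967), Acap1 (0.966), Ccl21 (0.962) and Tnfrsf14 (0.961). These values describe 9 libraries that differ by group, and share depth and tissue make-up. After the group means were taken off, r ran from 0.91 to 0.97 over the 10 genes. These genes were picked for a high r over the same libraries, so that this range is no separate check of the likeness.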

How the data were processed

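Spinal cord mRNA of 9 rats, 3 per group, was sequenced as paired ends and the libraries were taken one per rat, as the labels name them. Nothing further is said of separate cohorts, so that p-values measure the spread between these rats. The submitters' processing notes name fastp 0.23.2, HISAT2 2.2.1 and the build mRatBN7.2, and the counting program, its strand setting and its handling of reads that match several genes are not given in the sources used here. The authors deposited whole-number counts per gene and FPKM values that they made from them, scaled for gene length and library size.

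The counts were tested with edgeR 4.0.16 in R 4.3.3 (TMM, filterByExpr, quasi-likelihood F test) over the 6 libraries of the 2 groups compared, with Benjamini-Hochberg adjustment over all genes tested. The study's own methods name DESeq2, and DESeq2 1.42.0 was run as an alternative, with limma 3.58.1 on log2(FPKM + 1) and log2(FPKM + 0.1) as another, in which genes under 0.1 FPKM were left out or kept. DESeq2 was first run with its independent filtering set at 0.05 and then with its default, which matches earlier processing of these data and is the one quoted. The CPM values were computed from the counts with TMM factors over all libraries. The SE is the absolute log2 fold change divided by the square root of F. Levels relative to pan-myeloid genes and ratios between ligands were compared by exact permutation of 3 libraries against 3. Each script that fits across genes was tested on simulated data.

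The members and the gene lists were chosen with earlier results of these data known. Named by rule are all members and up to 3 called genes per direction of each pathway list by size, besides the 5 genes most like Ccl2 and Ccr2. Single genes of the cell type lists, such as Cd4, Cd3e, Cd3g, Fcer1g, Cfd and Fabp4, were named outside this rule and do not stand for their lists. The genes counted by DESeq2 among other CC ligands, Ccl17, Ccl21, Ccl20 and the ligand ratios were named after their values were seen, and the motifs were chosen after the tables were at hand. A gene that the rule also named is not reported here and was left out of its list. Intervals and levels of 3 counts cover counting error only.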

Additional observations from a re-analysis of the deposited data

How the results depend on the processing

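No log2 fold change of the 7 genes changed sign under any alternative tried. In SCI against Sham, 7 genes were called, 5 to 7 when each library was left out in turn, 6 with the replicate block (Ccl12 lost, adjusted p = 0.0598) and 1 when the muscle-rich SCI replicates 1 and 3 were both left out, an alternative chosen after seeing the data in which fewer samples remained. In SCI + SCS against SCI, 0 genes were called and 0 to 0 when each library was left out, but 3 by DESeq2, 3 by DESeq2 with its filtering set at 0.05 (also added after seeing the data) and 3 at the unadjusted p, and the cause was not tested. In SCI + SCS against Sham, 4 genes were called, 5 by DESeq2 and 3 to 5 when each library was left out. There were 2 with the replicate block and 2 by limma on log2(FPKM + 1) with no filter, where the pseudocount shrinks the change of low genes. For levels relative to myeloid genes, 1 gene had all SCI + SCS libraries below all SCI libraries. With the microglia list in place of the pan-myeloid list there were 3, and with the monocyte and macrophage list 0. When each library was left out there were 1 to 3, and the cause was not tested. The share of all genes on this scale was not computed. Libraries with the same replicate number did not deviate together in all pairs (r of deviations from -0.22 to 0.145), so that the number is not taken to pair the rats. Low counts limit Ccl12 most, with 0 to 8 counts in the Sham libraries.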
